A study of Mus musculus with 8 samples.

Results

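Toll-like receptors are the germline-encoded sensors that recognise molecules of bacteria, viruses, fungi and parasites. Those of the cell surface (encoded by Tlr1, Tlr2, Tlr4, Tlr5 and Tlr6) bind lipopeptides, lipopolysaccharide or flagellin, and those of the endosome (Tlr3, Tlr7 and Tlr9) bind nucleic acids. CD14 hands lipopolysaccharide and other ligands to the receptors, and MyD88 is the adaptor through which all of these receptors except TLR3 start signalling, which ends in nuclear factor NF-kB and inflammatory cytokines. In squamous epithelia such as that of the esophagus these receptors occur on keratinocytes as well as on resident and recruited leukocytes. The genes described here are these 8 receptor genes with Cd14 and Myd88, 10 in all out of 49315 gene identifiers in the count table. They were taken by name, after Ensembl identifiers had been matched to GENCODE M21 (GRCm38) symbols, and all 10 were found and passed the filter on low counts.

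Whole esophagus was profiled by polyA RNA sequencing in 8 male mice aged 8 weeks. Of these, 4 were EoE33 mice, which carry a transgene for epithelial overexpression of the alarmin IL-33, and 4 were wild type littermates on the C57BL/6J background. The promoter that drives the transgene is not given in the sources used here. The comparison of EoE33 with wild type asks how the esophageal transcriptome differs when IL-33 is overexpressed. All pairs of libraries differed by more than sampling noise, and nothing in the labels names a batch.

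Libraries held 17726292 to 24070822 counts. Il33 was at 99.7 to 164.9 CPM (counts scaled to a library of 1000000) in wild type and at 354.3 to 392.8 CPM in EoE33. The keratins of stratified epithelium were abundant in every library, with Krt13 between 10420 and 42560 CPM, but keratinocyte markers moved in both directions, 4 of 7 higher and 2 lower in EoE33. The basal-layer genes Krt14 and Krt5 rose 16.6-fold and 3.92-fold and the desmosomal gene Dsg3 5.43-fold, while the suprabasal genes Krt4 and Krt13 fell, with log2 fold changes of -2.25 and -0.96 (edgeR adjusted p = 0.000405 and 0.0121). The part of this change in the receptor results was not tested. In EoE33 the summed skeletal muscle markers were at 7357 to 9886 CPM, against 27700 to 30090 CPM in wild type, and the part of this difference in tissue make-up in the results was not tested. Wild type replicate 3 held airway transcripts, with Scgb1a1 at 350.1 CPM, and wild type replicate 1 held liver transcripts, with Alb at 91.2 CPM. In bulk tissue, fewer cells of a type and less RNA per cell cannot be told apart, and this holds for every level given here.

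Of the 10 genes, 8 were higher in EoE33, none was lower, and Tlr3 and Tlr7 did not pass (edgeR quasi-likelihood test, Benjamini-Hochberg adjusted over 16760 genes, threshold 0.05). Across all genes tested, 63.4% were called, 31.3% higher and 32.1% lower, so a change in itself was common in this comparison. No member was lower at an unadjusted p under 0.05 either (0 of 10), nor by DESeq2 or limma-voom (0 each). The members' median log2 fold change was 1.04, with a range from -0.11 for Tlr3 to 3.12 for Cd14, against -0.01 over all genes tested. The groups did not overlap, with all EoE33 libraries above all wild type libraries, in 7 of the 10, against 29.6% of all genes tested, and the reverse order in 0 of the 10, against 29.9%. Among the members, the cell-surface receptor genes were called in 5 of 5, and the endosomal ones in 1 of 3. Tlr8 and Tlr13, endosomal receptor genes outside the 10, were also higher, so this contrast holds for the members only. Without wild type replicates 1 and 3, an alternative chosen with these values known, 7 members were higher and Tlr9 no longer passed.

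**Figure D1:**
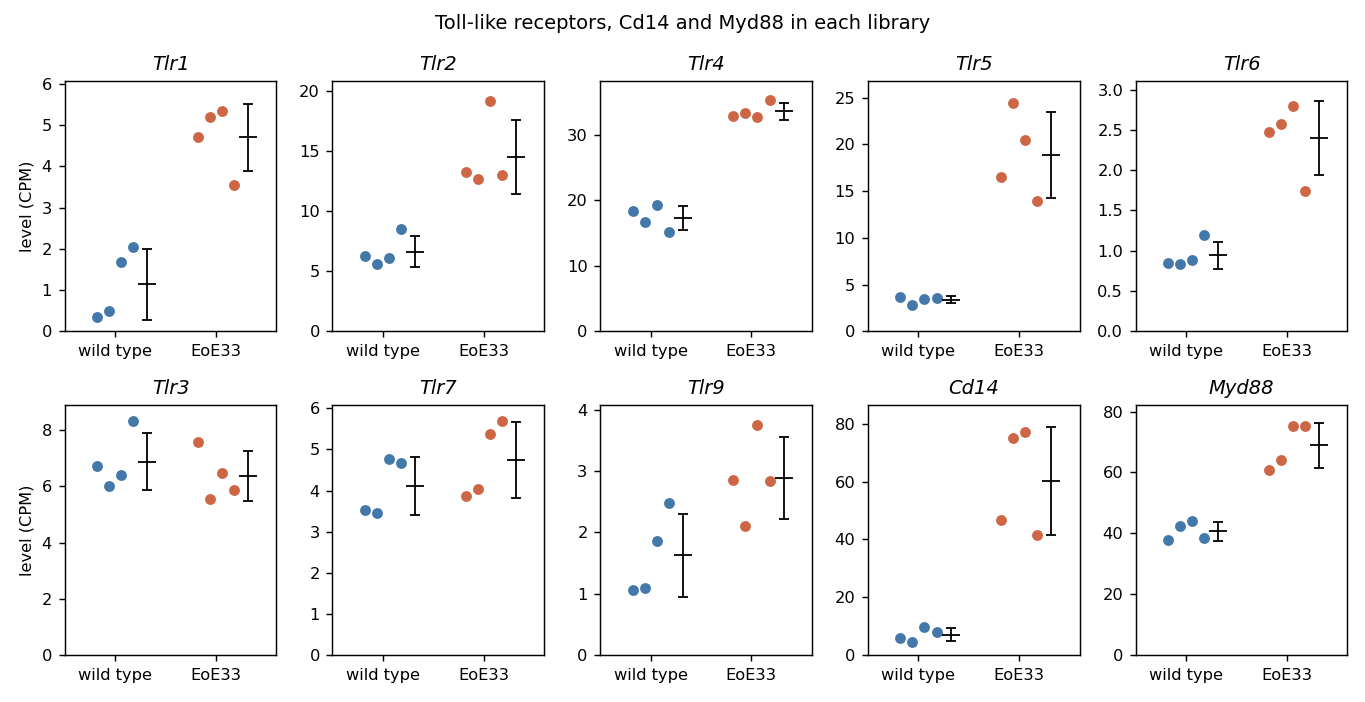
Level in CPM (y axis, from 0, with its own scale in each panel) of the 10 genes in the 4 wild type and 4 EoE33 libraries. Points are libraries in the order of their replicate number, and bars show mean and SD. Tlr1, Tlr2, Tlr4, Tlr5, Tlr6, Cd14 and Myd88 have no overlap between groups, while Tlr3, Tlr7 and Tlr9 do.

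Cd14 (ENSMUSG00000051439, chromosome 18, GRCm38, 36725067 to 36726798) had the largest rise of the 10. The gene encodes a leucine-rich repeat protein, anchored to the membrane or secreted, that is typical of monocytes, macrophages and neutrophils and that lacks a signalling domain. Its level was 5.93, 4.34, 9.51 and 7.91 CPM in the wild type libraries and 46.8, 75.1, 77.4 and 41.7 CPM in the EoE33 libraries. The lowest EoE33 library lay far above the highest wild type library, and EoE33 replicates 2 and 3 were the highest. Cd14 was 8.69-fold higher in EoE33 (log2 fold change 3.12 ± 0.31 SE, edgeR adjusted p = 5.11e-05).

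Tlr4 (ENSMUSG00000039005, chromosome 4, 66827584 to 66930284) encodes the lipopolysaccharide receptor, which CD14 loads. It stood at 18.3, 16.6, 19.3 and 15.1 CPM in wild type and at 32.8, 33.3, 32.7 and 35.4 CPM in EoE33. The EoE33 libraries were close to each other and all above the wild type libraries. Its rise was 1.93-fold (log2 fold change 0.95 ± 0.09 SE, edgeR adjusted p = 1.47e-05). Ly96 encodes MD-2, the secreted protein that binds lipopolysaccharide within the TLR4 complex. It was at 1.70, 1.62, 1.94 and 2.99 CPM in wild type and at 5.72, 4.38, 3.75 and 4.59 CPM in EoE33, a 2.23-fold rise (edgeR adjusted p = 0.00207).

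Among the transcripts for the parts of this complex, the ratio to Tlr4 differed between the groups for Cd14. On the scale of CPM per kilobase of exon, the ratio of Cd14 to Tlr4 was 0.838 to 1.68 in wild type and 3.78 to 7.59 in EoE33, with no overlap. The ratio of Ly96 to Tlr4 on the same scale was 0.504 to 1.08 in wild type and 0.624 to 0.949 in EoE33, and the groups overlapped. These ratios describe transcripts of mixed tissue, do not give the make-up of the protein complex, and were not tested.

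Tlr5 (ENSMUSG00000079164, chromosome 1, 182954788 to 182976044) encodes the flagellin receptor, and its rise was the largest among the receptor members. Its level was 3.64, 2.81, 3.46 and 3.55 CPM in wild type and 16.5, 24.4, 20.5 and 13.9 CPM in EoE33. The wild type libraries lay within a narrow range far below all EoE33 libraries, among which replicates 2 and 3 were again the highest. Tlr5 was 5.59-fold higher (log2 fold change 2.48 ± 0.19 SE, edgeR adjusted p = 5.96e-06).

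Tlr2 (ENSMUSG00000027995, chromosome 3, 83836272 to 83841767) encodes the shared chain of the lipopeptide receptors, which pairs with the product of Tlr1 or Tlr6. Its level was 6.27, 5.61, 6.13 and 8.47 CPM in wild type and 13.3, 12.7, 19.1 and 13.0 CPM in EoE33. All EoE33 libraries were above the wild type ones, and replicate 3 stood above the other EoE33 libraries. The rise was 2.19-fold (log2 fold change 1.13 ± 0.18 SE, edgeR adjusted p = 0.000472).

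The bases before the start sites of Tlr2 and Tlr5 are shown because both genes rose and their windows differ in the sites they hold. They come from RefSeq (GRCm38.p6), 5′ to 3′ on the strand of the gene, with matches to the NF-kB motif in capitals. For Tlr2 the stretch is the part of the window outside annotated exons, chr3:83841768-83841858 on the minus strand. For Tlr5 it is chr1:182954538-182954787 on the plus strand.
Tlr2: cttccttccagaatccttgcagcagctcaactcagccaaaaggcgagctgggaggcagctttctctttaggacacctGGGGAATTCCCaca
Tlr5: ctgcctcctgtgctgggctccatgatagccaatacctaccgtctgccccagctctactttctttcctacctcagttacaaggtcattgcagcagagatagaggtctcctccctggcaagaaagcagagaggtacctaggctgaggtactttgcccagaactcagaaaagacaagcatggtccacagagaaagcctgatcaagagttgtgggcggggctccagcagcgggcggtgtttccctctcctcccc

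Windows of 250 bases before the start were searched for 7 of the 10 genes, as 9 windows, since Tlr1 and Tlr6 have a further start each. No entry was available for Tlr4 and Tlr7. Members on chromosome 18, where Cd14 lies, were left out of the search, so nothing is said on the window of Cd14. Searched on both strands were the NF-kB motif, TGANTCA for AP-1, TTC and GAA with 4 bases between them for STAT6, and GAAA repeated after 2 bases for the interferon-stimulated response element. NF-kB motifs were found in Tlr2, as 2 matches that overlap in the capitals above, and in Tlr3, with 1 match within an annotated exon. Of all 32851 promoter windows of that length, 7.25% held an NF-kB match. The AP-1 letters were found in Tlr9 only (6.75% of all windows), and the interferon element in Myd88 and in 1 of the Tlr6 windows (2.98% of all windows). The STAT6 letters were in 0 of the 9 windows (5.85% of all windows), and no match to any of the 4 was in the Tlr5 or Tlr1 windows. A match describes letters and not a bound site.

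Tlr1 (ENSMUSG00000044827, chromosome 5, 64924679 to 64933563) and Tlr6 (ENSMUSG00000051498, chromosome 5, 64952031 to 64960097) are neighbouring paralogs on the minus strand. Their products pair with TLR2 to bind lipopeptides that differ in their acyl chains. Tlr1 was at 0.34, 0.48, 1.69 and 2.05 CPM in wild type and at 4.72, 5.20, 5.34 and 3.54 CPM in EoE33. Wild type replicates 1 and 2 were far below replicates 3 and 4, and all were below the EoE33 libraries. The rise was 4.10-fold (log2 fold change 2.04 ± 0.50 SE, edgeR adjusted p = 0.00622), with 107 counts summed over wild type and 383 over EoE33. Tlr6 was at 0.85, 0.83, 0.89 and 1.20 CPM in wild type and at 2.48, 2.57, 2.80 and 1.75 CPM in EoE33. Its groups did not overlap either, and it was 2.54-fold higher (log2 fold change 1.34 ± 0.22 SE, edgeR adjusted p = 0.00065).

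A single read from within part of these paralogs cannot by itself be assigned to either gene. The longest run of bases that the Tlr1 and Tlr6 transcripts share is 229 bases, coding in both, at chr5:64925537-64925765 in Tlr1 and chr5:64953828-64954056 in Tlr6 (GRCm38, minus strand). It is shown because it is longer than the windows of 150 bases compared below.
Shared run: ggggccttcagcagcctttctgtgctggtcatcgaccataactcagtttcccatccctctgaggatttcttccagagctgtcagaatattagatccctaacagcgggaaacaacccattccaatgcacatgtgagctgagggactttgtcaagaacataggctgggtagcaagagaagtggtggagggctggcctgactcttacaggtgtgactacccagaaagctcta
Of all windows of 150 bases, 4.83% in the longest Tlr1 transcript and 3.94% in the longest Tlr6 transcript occur in the other gene. A small part of their counts may thus be uncertain. Reads were paired, and the other read of a pair can lie outside the run, which these windows do not take into account. None of the windows of the other receptor members or of Cd14 occurred in another gene.

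Of the endosomal receptor members, Tlr3 and Tlr7 did not pass. Tlr3 (ENSMUSG00000031639, chromosome 8, 45395665 to 45411080), which encodes the sensor of viral RNA duplexes, was at 6.74, 6.01, 6.42 and 8.34 CPM in wild type and at 7.58, 5.55, 6.46 and 5.88 CPM in EoE33. The groups overlapped, with a log2 fold change of -0.11 and a 95% interval from -0.45 to 0.23 (edgeR adjusted p = 0.543). Tlr7 (ENSMUSG00000044583, chromosome X, 167304929 to 167330558), which encodes a sensor of guanosine- and uridine-rich RNA, was at 3.52, 3.47, 4.77 and 4.66 CPM in wild type and at 3.86, 4.03, 5.39 and 5.68 CPM in EoE33. These groups overlapped as well, with a log2 fold change of 0.21 and a 95% interval from -0.22 to 0.63 (edgeR adjusted p = 0.354). Both intervals end below 1, the value of a 2-fold rise on this scale.

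Tlr9 (ENSMUSG00000045322, chromosome 9, 106222598 to 106226883), the sensor gene for unmethylated CpG DNA, passed narrowly. Its level was 1.06, 1.10, 1.86 and 2.48 CPM in wild type and 2.86, 2.10, 3.75 and 2.84 CPM in EoE33. Wild type replicate 4 lay above EoE33 replicate 2, so the groups overlapped. The rise was 1.78-fold (log2 fold change 0.83 ± 0.31 SE, edgeR adjusted p = 0.0392). Leaving out wild type replicate 1, 2 or 3 moved the edgeR adjusted p to 0.101, 0.0912 and 0.0531. Leaving out replicate 1, 3 or 4 of EoE33 moved it to 0.0669, 0.106 and 0.0674. Over these 6 fits the log2 fold change itself stayed between 0.67 and 0.90. With library size as the only scaling the edgeR adjusted p was 0.0545, at a log2 fold change of 0.81.

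**Figure D2:**
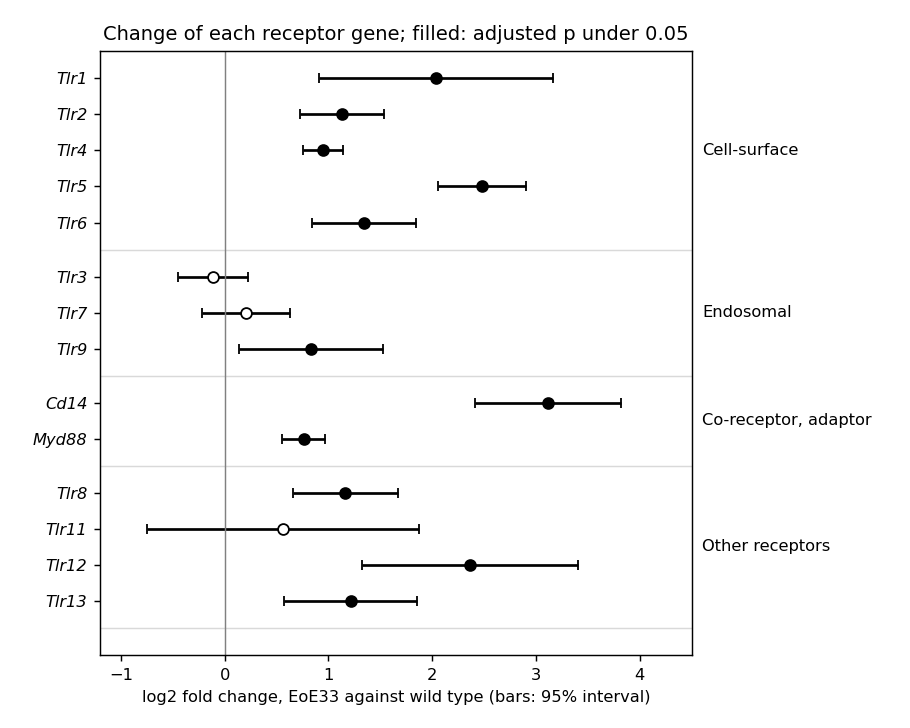
Log2 fold change of each gene in EoE33 against wild type (x axis), with 95% intervals from the edgeR fit as bars and filled points for adjusted p under 0.05. The cell-surface receptors, from 0.95 for Tlr4 to 2.48 for Tlr5, lie to the right of 0, and the intervals of Tlr3, Tlr7 and Tlr11 cross 0.

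Among the endosomal receptor genes outside the 8, Tlr8 and Tlr13 rose 2.24-fold and 2.32-fold (edgeR adjusted p = 0.00153 and 0.00457). TLR13 senses bacterial ribosomal RNA in the mouse. Tlr8 was at 1.57 to 3.25 CPM in wild type and at 4.39 to 5.67 CPM in EoE33, and Tlr13 at 2.25 to 5.05 and at 5.48 to 10.7 CPM. Tlr12, a profilin sensor gene of the mouse, had 12 counts summed over wild type and 55 over EoE33, and rose 5.15-fold (edgeR adjusted p = 0.00169). Tlr11, of the same subfamily, had 31 and 40 counts and did not pass (log2 fold change 0.56), with a 95% interval from -0.75 to 1.88.

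Myd88 (ENSMUSG00000032508, chromosome 9, 119335934 to 119341411) had the highest CPM of the 10 in wild type. Its level was 37.8, 42.2, 44.0 and 38.3 CPM in wild type and 60.7, 64.2, 75.2 and 75.4 CPM in EoE33. All EoE33 libraries were above all wild type libraries. The rise was 1.70-fold (log2 fold change 0.76 ± 0.09 SE, edgeR adjusted p = 9.08e-05). Exons of Myd88 share 290 of 2576 bases with Acaa1a on the opposite strand, a peroxisomal thiolase gene that fell from a mean of 107.2 to 78.4 CPM, and 3.25% of its 150-base windows occur in Acaa1a transcripts. Whether strand was used in the counting is not given in the sources used here.

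Between genes, levels were compared per length, as CPM per kilobase of exon. In wild type the receptor members ranked Tlr4, Tlr2, Tlr3, Tlr7, Tlr5, Tlr9, Tlr1 and Tlr6, from 3.12 ± 0.33 to 0.25 ± 0.05 CPM per kilobase (SD, n = 4). Along that order the ranges of neighbours were apart between Tlr2 and Tlr3 and between Tlr7 and Tlr5, and overlapped otherwise. In EoE33 the order was Tlr4, Tlr2, Tlr5, Tlr1, Tlr3, Tlr7, Tlr9 and Tlr6, from 6.04 ± 0.22 to 0.64 ± 0.12 CPM per kilobase (SD, n = 4). There, only the step from Tlr5 to Tlr1 separated neighbours beyond their ranges. Cd14 was at 4.00 ± 1.30 CPM per kilobase in wild type against 34.8 ± 10.7 in EoE33 (SD, n = 4 each), where it stood above Myd88 in 3 of 4 libraries. There Cd14 was at 27.0, 43.4, 44.7 and 24.1 CPM per kilobase, against 23.6, 24.9, 29.2 and 29.3 for Myd88.

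The summed per-length level of the 8 receptor members was 8.13 to 10.7 in wild type and 18.4 to 22.5 CPM per kilobase in EoE33. Its make-up differed mainly in Tlr5, whose share was 7.50% ± 0.70 in wild type against 19.5% ± 4.05 (SD, n = 4 each), with no overlap. Tlr3 held 14.0% ± 1.11 in wild type and 6.14% ± 1.06 in EoE33, and Tlr7 held 10.7% ± 0.89 and 5.82% ± 1.24 (SD, n = 4 each), again without overlap. Tlr2 held 23.3% ± 2.39 in wild type against 23.9% ± 3.11 (SD, n = 4 each), with overlap. Shares add up to a fixed total, so a smaller share of Tlr3 or Tlr7 does not mean a lower level. The ratio of Tlr1 to Tlr2 was 0.0487, 0.0774, 0.248 and 0.218 in wild type and 0.321, 0.369, 0.252 and 0.246 in EoE33, and overlapped between groups. The ratio of Tlr6 to Tlr2 was 0.109 to 0.12 in wild type and 0.109 to 0.164 in EoE33.

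Leukocyte markers moved with some of these genes. Of the macrophage markers, 9 of 10 rose and none fell, against 31.3% higher and 32.1% lower among all genes tested. Their summed level was 236.9 to 369.7 CPM in wild type and 501.2 to 630.1 CPM in EoE33. Per 100 CPM of summed macrophage markers, Cd14 was at 1.83 to 2.58 CPM in wild type and 6.62 to 14.0 CPM in EoE33, and Tlr5 at 0.94 to 1.32 and 2.21 to 4.55 CPM, without overlap. Tlr1, at 0.123 to 0.555 against 0.562 to 0.969 CPM, did not overlap either, by a small margin. On the same scale Tlr4 was at 4.10 to 7.02 and 5.35 to 6.54 CPM, Tlr2 at 1.66 to 2.37 and 2.06 to 3.13 CPM, and Myd88 at 10.4 to 17.8 and 12.0 to 12.3 CPM, and each of these overlapped. So did Tlr6, at 0.241 to 0.352 and 0.277 to 0.495 CPM, and Tlr9, at 0.383 to 0.671 and 0.392 to 0.613 CPM. Tlr3 and Tlr7 were lower in every EoE33 library than in any wild type library on this scale, at 0.934 to 1.51 against 1.74 to 2.54 CPM and at 0.751 to 0.902 against 1.26 to 1.46 CPM. These are ratios of mixed tissue and do not place any gene in macrophages.

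Neutrophil markers rose in 6 of 6 tested genes of 7, against 31.3% of all genes tested. Their summed level was 14.6, 11.6, 18.7 and 19.3 CPM in wild type and 106.0, 206.1, 239.4 and 111.3 CPM in EoE33. EoE33 replicates 2 and 3, highest in these markers, were also the highest in Cd14 and Tlr5. Most of the wild type sum came from Cxcr2, at 6.63 to 10.9 CPM, and Mmp9, at 1.84 to 8.56 CPM, while the defining marker Ly6g had 0 counts in 3 wild type libraries and was at 1.10 to 3.80 CPM in EoE33. Keratinocyte markers separated the same EoE33 libraries in part. Replicates 2 and 3 were the lowest in Krt4, at 3843 and 6134 CPM against 11250 and 8936 CPM in replicates 1 and 4. They were also the lowest in Krt13 and Perp and the highest in Krt5 and Trp63, but neither held for Krt14 and Dsg3. The part of neutrophils or of this epithelial difference in the rise of Cd14 and Tlr5 was not tested.

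B cell markers gave no call in 6 genes, but differed strongly within groups. Their summed level was 1.44, 0.83, 33.9 and 37.6 CPM in wild type and 16.4, 53.9, 31.8 and 8.83 CPM in EoE33. Wild type replicates 1 and 2, with few B cell transcripts, were also the lowest in Tlr1 and Tlr9, genes that mouse B cells express. In EoE33, replicates 1 and 4 were the lowest both in B cell markers and in Tlr1, while replicate 2, highest in B cell markers, was the lowest in Tlr9. Wild type replicates 1 and 2 were also the lowest in summed macrophage markers, at 276.5 and 236.9 CPM against 368.4 and 369.7 CPM, and in the neutrophil marker Csf3r, at 0.85 and 0.35 CPM against 3.34 and 2.91 CPM. The part of B cells and of these other leukocytes in the results for Tlr1 and Tlr9 was not tested. Of the plasmacytoid dendritic cell list, Siglech was at 0.44 to 2.65 CPM in wild type and 0.50 to 1.23 CPM in EoE33 and did not pass (edgeR adjusted p = 0.582). Most of that list's summed level came from Cox6a2 and Tcf4, which other tissue also expresses, so the sum says little on these cells.

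**Figure D3:**
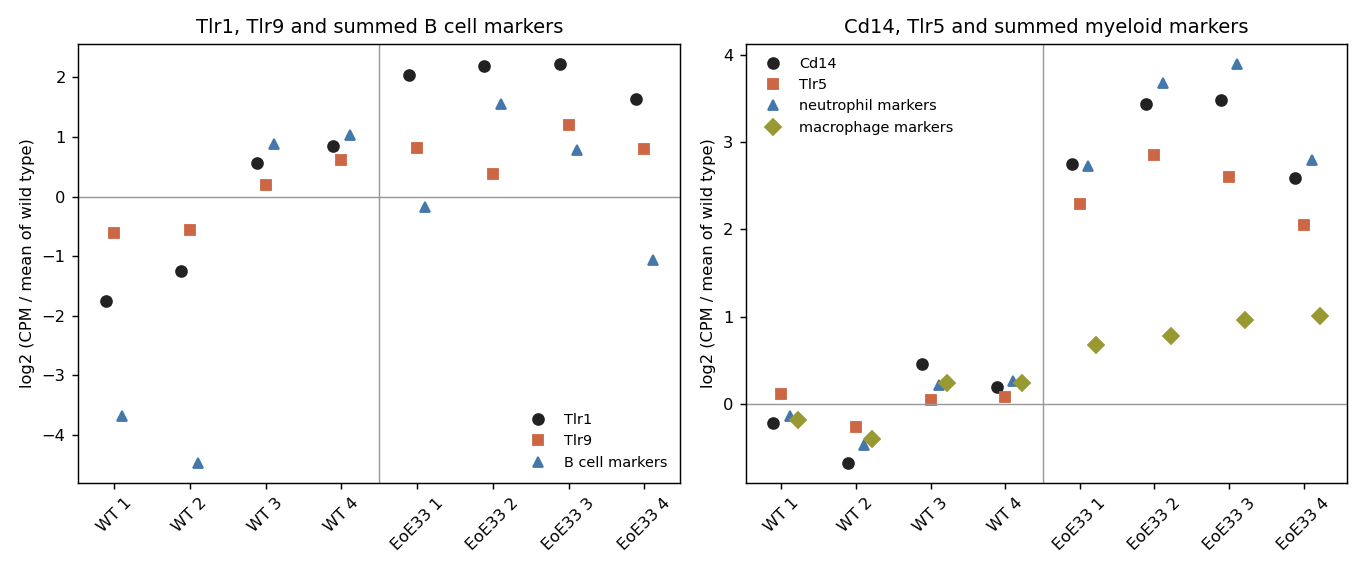
Log2 of the CPM in each library over the wild type mean (y axis), for Tlr1, Tlr9 and the summed B cell markers at left and for Cd14, Tlr5 and the summed neutrophil and macrophage markers at right. Wild type replicates 1 and 2 are low in Tlr1, Tlr9 and B cell markers, and EoE33 replicates 2 and 3 are high in Cd14, Tlr5 and neutrophil markers.

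Downstream and around the receptors, 88 further genes of the pathway were listed, of which 82 were tested. In EoE33, 59 were higher and 4 were lower (edgeR), with a median log2 fold change of 0.89. Across all genes tested 63.4% were called, 31.3% higher and 32.1% lower, with a median of -0.01. Of the accessory proteins, 7 of 11 were higher and 2 lower, beside these shares of all genes, with a median of 0.37. Unc93b1, which carries the endosomal receptors out of the endoplasmic reticulum, rose 1.67-fold, and Hsp90b1, the chaperone that folds most of these receptors, rose 2.72-fold. Lrrc59, a membrane protein of the endoplasmic reticulum linked to endosomal receptor traffic, rose 3.05-fold. The lower ones were Cd36, a fatty acid transporter that also serves TLR2 as a co-receptor, and Tril, an accessory protein of TLR4 and TLR3, with log2 fold changes of -1.71 and -1.39 (edgeR adjusted p = 0.00214 and 0.00094).

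Of the adaptors and proximal kinases, 9 of 18 were higher and 2 lower, with a median log2 fold change of 0.32. The 11 called of 18 are close to the 63.4% called among all genes tested, so this count is no result about the list. Tirap, which bridges TLR2 and TLR4 to MyD88, rose 3.28-fold from 20.3 ± 2.03 to 66.6 ± 7.42 CPM (SD, n = 4 each). Irak4, the kinase that MyD88 recruits first, rose 1.99-fold, and the interferon-pathway kinase genes Ikbke and Tbk1 rose 1.95-fold and 1.33-fold. Exons of Irak4 share 395 bases with Twf1 on the opposite strand. Traf6, the ubiquitin ligase downstream of the IRAK kinases, fell from 73.9 ± 8.62 to 43.8 ± 6.67 CPM (SD, n = 4 each), and Tab2, its partner in activating TAK1, from 134.0 ± 1.15 to 102.7 ± 6.63 CPM (SD, n = 4 each). For both, edgeR gave adjusted p = 0.00055 and 0.000489. Irak1 did not pass (log2 fold change -0.02), with a 95% interval from -0.15 to 0.11.

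The transcription factor genes of the pathway were higher in 7 of 8 members, against 31.3% of all genes tested, with a median log2 fold change of 1.02. Among the NF-kB subunits, Nfkb1, Rel, Nfkb2 and Rela rose 3.65-fold, 2.52-fold, 2.21-fold and 1.54-fold. Irf3, which mediates interferon induction by TLR3 and TLR4, did not pass, at 0.15 on the log2 scale (edgeR adjusted p = 0.0525). Inhibitors of the pathway were higher in 11 of 13 tested members, against the same 31.3%, with a median of 0.89. Tnip3, which binds A20, rose 16.4-fold, Tnfaip3, the A20 gene itself, 10.7-fold, and Socs1 and Nfkbia 7.97-fold and 1.96-fold. For Tnfaip3 the means were 5.81 ± 1.02 CPM in wild type against 62.3 ± 16.5 CPM in EoE33 (SD, n = 4 each).

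Of the inflammatory targets, 12 of 13 tested genes were higher, against 31.3% of all genes tested, with a median log2 fold change of 3.84. The neutrophil chemoattractant gene Cxcl2 rose 187-fold, with 0.46 ± 0.14 CPM in wild type against 87.0 ± 38.0 CPM in EoE33 (SD, n = 4 each). The adhesion molecule gene Icam1 and the NF-kB cofactor gene Nfkbiz rose 3.71-fold and 3.57-fold, beside Il1b, which was at 0.99 ± 0.44 and 99.9 ± 37.4 CPM (SD, n = 4 each). These targets also respond to receptors other than Toll-like receptors. Other families of pattern recognition receptors were higher in 10 of 15 tested genes and lower in 0, with a median of 1.01. The 10 called of 15 are close to the 63.4% called among all genes tested, so the number called is no result about this list. Among all genes tested 31.3% were higher and 32.1% lower. Clec7a, the beta-glucan receptor Dectin-1, rose 12.2-fold, and Clec4n, the mannan receptor Dectin-2, 18.5-fold, with 31 counts summed over wild type. Tmem173, which encodes the DNA-pathway adaptor STING, rose 11.1-fold, and Ddx58, the RNA sensor RIG-I, 2.06-fold.

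**Figure D4:**
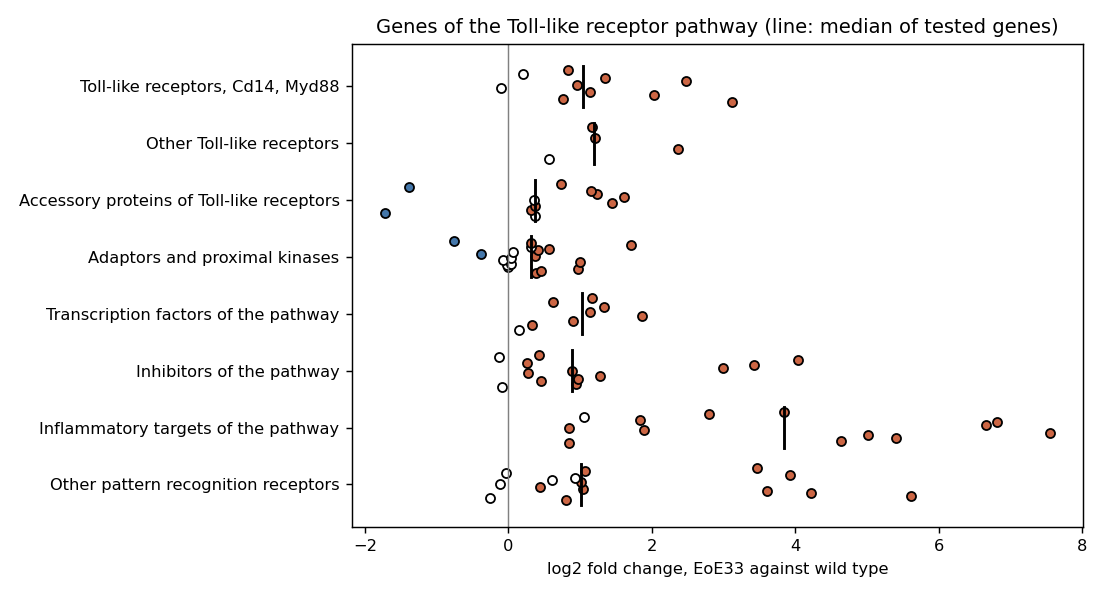
Log2 fold change in EoE33 against wild type (x axis) of each tested gene of the pathway by list, with orange for genes called higher, blue for genes called lower and white for genes that did not pass. Black lines are list medians, from 0.32 for adaptors and proximal kinases to 3.84 for inflammatory targets, with 1.04 for the 10 genes at the top.

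The genes whose profile over the 8 libraries was most like that of Cd14 were Mctp1, Ccr1 and Cxcl16, out of 13914 protein-coding genes with a mean of at least 1 CPM. Their root mean square difference from Cd14 in centred log2 CPM was 0.17, 0.19 and 0.22. They encode a calcium-binding membrane protein, a receptor for CC chemokines of myeloid cells, and a membrane-bound chemokine. Ccr1 was at 1.70, 1.76, 3.93 and 3.25 CPM in wild type and at 15.7, 27.8, 26.9 and 18.6 CPM in EoE33. As for Cd14, wild type replicate 3 and EoE33 replicates 2 and 3 were the highest of their groups. The gene was chosen for likeness to Cd14 over these same libraries, so this match is no separate finding. No member fell, so no profile like a falling member was sought.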

How the data were processed

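PolyA RNA of whole esophagus was sequenced as paired-end reads in 4 EoE33 and 4 wild type mice, grouped by sample title. The deposited table holds unnormalised counts for 49315 Ensembl identifiers. The submitters' processing notes name Trimmomatic 0.36, STAR 2.5.2b, featureCounts, Subread 1.5.2 and GRCm38, with no roles. Annotation release, strand use and the treatment of multi-mapping reads were not given in the sources used here. Columns were assigned by the spreadsheet letter in each sample's description. GENCODE M21 (GRCm38) matched 49056 identifiers.

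Genes were filtered with filterByExpr, scaled by TMM and tested with edgeR 4.0.16 (R 4.3.3, glmQLFit with robust = TRUE, glmQLFTest). On simulated counts it called 16 of 50 genes raised 1.5-fold, 41 of 50 raised 2-fold and 46 of 50 raised 4-fold. Small changes are thus often missed. CPM uses TMM-scaled library sizes. Standard errors come from the F statistic, and intervals cover 95%. Two-sided exact permutation of log2 CPM (plus 0.01) gave p = 0.0286, the smallest of 70 orderings, for each member without overlap, and p = 0.0571 for Tlr9. The edgeR p-values weigh the difference between groups against the spread between these mice. Counting error is largest for genes with few counts: 3 counts were 0.127 to 0.175 CPM.

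Alternatives were DESeq2 1.42.0 and its size factors, limma-voom (limma 3.58.1), upper-quartile or no scaling, other filters, robust = FALSE, a replicate block, a threshold of 0.01 and leaving out each library. Members and lists were chosen with earlier results of these data known. Named were all members, the Toll-like receptors outside them, up to 4 genes with the smallest p of each list, and the 3 genes most like the member with the largest rise. Ly96, Cd36, Traf6, Tab2, Irak1, Irf3, the list genes too low to test, and single marker genes outside the 2 most abundant of a list were named after their values were seen.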

Additional observations from a re-analysis of the deposited data

Results flagged for a closer look

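In a test for a sample far from the other 3 of its group, run on 20 groups (10 genes in 2 genotypes), 2 values stood apart, where chance gives about 1 in 20. Tlr2 in EoE33 replicate 3 was at 19.1 CPM, against 12.7 to 13.3 CPM in the other EoE33 libraries. Without that library Tlr2 kept its call, with a log2 fold change of 0.98. Tlr6 in wild type replicate 4 was at 1.20 CPM, against 0.83 to 0.89 CPM in the other wild type libraries. Without that library its log2 fold change was 1.48. Tlr6 had only 88 counts summed over wild type, and the part of counting error in this gap was not tested.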

How the results depend on the processing

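Of the 10 genes, 7 to 8 were called higher and 0 lower under every alternative run, and the gene that lost its call was Tlr9 in each of the 9 settings that gave 7, the threshold of 0.01 included. No member changed sign. Leaving out each library in turn gave 7 to 8 members higher, 56 to 61 other pathway genes higher and 4 to 5 lower. The numbers 1 to 4 recur in both groups. The correlation of deviations between same-numbered libraries was 0.104, -0.122, 0.056 and -0.136, and between libraries of different number it was -0.118 to 0.152. These values show no pairing by number, but with 4 libraries per group they cannot exclude one. With the replicate block 8 members were higher and 0 lower, the other pathway genes gave 59 and 4, and all genes gave 4936 and 5120, against 5238 and 5383 without it. Library size without the counts of Chil4, chosen after seeing the data, gave 6080 genes higher and 4535 lower and 8 members higher, with the median of all genes at 0.09. Depth limits Tlr11, Tlr12 and Tlr6, which had at most 14, 18 and 65 counts in a library. It also limits Tlr1, which had 8 counts in its lowest library. With each library left out in turn, the Tlr1 log2 fold change ran from 1.73 to 2.47.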

Other observations

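Some listed genes had too few counts to be tested. Csf3, the gene of the granulocyte growth factor G-CSF, had 1 count summed over wild type and 108 over EoE33. Il10 had 8 and 45 counts, Il12b 2 and 7, and Ifnb1, the interferon gene induced through TLR3 and TLR4, had 2 and 0. Sarm1, an inhibitory adaptor gene, had 44 and 13. Marco, a scavenger receptor gene of alveolar and other macrophages, was at 0.34, 0.04, 11.5 and 4.11 CPM in wild type and at 0.10 to 0.47 CPM in EoE33. Its highest library, wild type replicate 3, was also the one with Scgb1a1 at 350.1 CPM.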
